A study of Homo sapiens with 6 samples.

Results

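The miRNA table holds entries that overlap or resemble other stable RNAs, of which 10 are described here, hsa-miR-4485-3p, hsa-miR-1246, hsa-miR-1248, hsa-miR-1291, hsa-miR-3648, hsa-miR-3687, hsa-miR-664a-3p, hsa-miR-664a-5p, hsa-miR-664b-3p and hsa-miR-7641. They are 10 of the 2588 mature miRNA names listed. They were chosen by where their hairpins lie or what their sequence resembles, namely ribosomal RNA (rRNA), mitochondrial rRNA, small nucleolar RNA (snoRNA) or U2 small nuclear RNA (snRNA). The set was drawn up with results of these libraries already known, the low level of miR-4485-3p in the knockout among them, so the group difference of that entry is given as a description. The libraries are small RNA-seq of A549, an epithelial line of human lung adenocarcinoma, with 3 libraries of the parental line (Ctrl) and 3 of MIR21-KO cells, in which a pair of Cas9 guide RNAs was used against the MIR21 gene. Cells of both groups were harvested 48 h after seeding. MIR21-KO lines were grown from single cells, the number of clones behind the 3 libraries is not stated, and a clone effect cannot be told apart from the loss of miR-21. The study describes its experiments as biological triplicates, but the labels do not say whether these libraries came from separate cultures or clones, and p-values measure the spread between these libraries.

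Ribosomal RNA, snoRNA and snRNA are the abundant stable RNAs of the cell. rRNA forms the ribosome, H/ACA snoRNAs guide the isomerization of uridine to pseudouridine and end in an ACA trinucleotide close to their 3′ end, and U2 snRNA recognizes the branch point of introns in the spliceosome. A few H/ACA snoRNAs are cut by Dicer into miRNA-sized pieces that load into Argonaute proteins, whereas other miRNA names were given to short reads that also match a longer stable RNA, and a short read alone does not tell which molecule it came from.

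The mature sequences are shown because they carry the placement of each name. They were taken from RefSeq (GRCh38.p14), which held 8 of the 10 entries plus the second strand of MIR664B. Bases 2 to 8, the seed that pairs with targets, are in capitals.
miR-4485-3p: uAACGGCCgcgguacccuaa
miR-3648: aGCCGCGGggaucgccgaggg
miR-664a-3p: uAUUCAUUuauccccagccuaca
miR-664b-3p: uUCAUUUGccucccagccuaca
miR-664a-5p: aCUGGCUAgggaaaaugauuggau
miR-664b-5p: uGGGCUAAgggagaugauugggua
miR-1291: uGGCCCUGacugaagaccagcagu
miR-1248: aCCUUCUUguauaagcacugugcuaaa
miR-1246: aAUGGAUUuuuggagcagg
No pair of these entries shared a seed. miR-3687 and miR-7641 are named without a sequence.

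Each mature sequence was searched in 2993 transcripts of GENCODE 29. These were rRNA, snoRNA, scaRNA and snRNA transcripts and all mitochondrial transcripts, mRNAs included. Of the 2281 names with a mature sequence, 13 lay whole and without mismatch in such a transcript, and 7 of the 13 belong to the entries described here. All 20 bases of miR-4485-3p equal bases 893 to 912 of the 1559 bases of MT-RNR2, the 16S rRNA of the mitochondrial ribosome. All 19 bases of miR-1246 equal bases 94 to 112 of the 191 bases of RNU2-1, a U2 snRNA gene. The remaining 5 lay in snoRNAs.

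The ends of the snoRNAs that overlap MIR664A and MIR664B show where the 3p strands stop. The last 26 bases of each are given with the ACA trinucleotide in capitals.
SNORA36B: uauucauuuauccccagccuACAaaa
SNORA36A: auucauuugccucccagccuACAaaa
miR-664a-3p covers bases 106 to 128 of the 131 bases of SNORA36B, and miR-664b-3p covers bases 108 to 129 of the 132 bases of SNORA36A. Both therefore end with the last base of the ACA trinucleotide, 3 bases before the end of the snoRNA, and they share a run of 11 bases, cccagccuaca. The 5p strand of miR-664a covers bases 68 to 91 of SNORA36B. miR-1291 covers bases 2 to 25 of SNORA2C and miR-1248 covers bases 1 to 27 of SNORA81, so these lie at the 5′ end of their snoRNA.

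The hairpins lie on chromosomes 1, 2, 3, 11, 12, 14, 21 and X (GRCh38). MIR664A is at chr1:220200538-220200619 on the minus strand, overlapping SNORA36B within an intron of RAB3GAP2. MIR664B is at chrX:154768596-154768656 on the plus strand, wholly inside SNORA36A within DKC1, over an exon of at least 1 transcript. DKC1 is the gene of dyskerin, the pseudouridine synthase of H/ACA particles. MIR1291 is at chr12:48654444-48654530 on the minus strand with SNORA2C in an intron of KANSL2, and MIR1248 is at chr3:186786672-186786777 on the plus strand with SNORA81 in EIF4A2, over an exon of at least 1 transcript. MIR4485 is at chr11:10508270-10508326 on the minus strand, in an exon of MTRNR2L8, a nuclear gene that resembles MT-RNR2, and 53 of its 57 hairpin bases equal the mitochondrial rRNA. MIR1246, at chr2:176600980-176601052 on the minus strand, overlaps no annotated gene of these classes and shares with U2 snRNA only the 19-base run of the mature sequence.

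Another 3 names lie in ribosomal DNA or resemble 5S rRNA. MIR3648-1 at chr21:8208473-8208652 and MIR3687-1 at chr21:8208844-8208904, both on the plus strand, lie within the RefSeq 45S precursor RNA45SN2 in the external spacer before the 18S rRNA. They begin 2485 and 2856 bases after the start of the precursor. Each has a copy that is identical over its whole hairpin, MIR3648-2 at chr21:8986999-8987178 over 180 bases and MIR3687-2 at chr21:8987370-8987430 over 61 bases. MIR7641-2, at chr14:75604209-75604261 in an intron of FLVCR2, lies inside the 5S rRNA pseudogene RNA5SP387, and 52 of its 53 bases equal 5S rRNA (RNA5S12). MIR7641-1, at chr11:104252591-104252651, overlaps no annotated gene of these classes, and 56 of its 61 bases equal 5S rRNA, the longest unbroken stretch of 25 bases being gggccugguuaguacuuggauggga. Hairpins were also compared with rRNA, mitochondrial rRNA and tRNA, snoRNA, scaRNA and snRNA genes of GENCODE 29 on the same strand. Pseudogenes and nuclear tRNA genes were not counted. Of the 1881 miRNA hairpin genes, 7 overlapped such a gene, MIR664A, MIR664B, MIR1248 and MIR1291 among them.

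Each deposited value is a CPM value (reads divided by the library total) scaled by the trimmed mean of M values (TMM), and whole reads could be recovered from it. The libraries held 6180032 to 9768152 miRNA reads in Ctrl and 5577287 to 8671618 in MIR21-KO. miR-21-5p had 4232696 to 6782871 reads in the Ctrl libraries and 1127 to 2087 in the MIR21-KO libraries, and both miR-21 strands together made up 65.5 to 69.6% of Ctrl reads against 0.0156 to 0.0254% of MIR21-KO reads. Of the epithelial markers, miR-200c-3p had 165 to 971 reads in all libraries and miR-141-3p had 1 to 19. miR-192-5p was present in all libraries but differed between the groups, with 154024 to 191173 reads in Ctrl and 46039 to 54241 in MIR21-KO. Its log2 fold change was -3.11 (limma adjusted p = 0.0111). Of 7 miRNAs of blood, liver, muscle and neurons, 3 passed the filter on low values, namely miR-122-5p of liver with 56 to 521 reads, miR-1-3p of muscle with 40 to 547 and miR-451a of red blood cells with 12 to 154. The other 4 had 0 to 14 reads. The part of such RNA in the results was not tested. Libraries stood apart in a way that the groups do not follow. On the first principal component, which held 64.0% of the variance, Ctrl 1, Ctrl 2 and MIR21-KO 3 scored 21.0, 18.1 and 10.4, and Ctrl 3, MIR21-KO 1 and MIR21-KO 2 scored -13.7, -17.7 and -18.0. The labels give no batch. The paper states that small RNA libraries were made either with the NEXTflex kit or by Novogene, and sequenced in Dresden or at Novogene. It does not say which route each of these libraries took, and whether the split follows it was not tested. The part of this split in the results was not tested beyond the values given beside them.

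The entries were scarce. Their mean deposited values over the 6 libraries ranged from 0.0721 for miR-1248 to 8.86 for miR-664a-3p, which ranked 344 of the 2588 names. A value of 1 or more in at least 3 of 6 libraries was required for testing, which 607 names and 8 of the 10 entries reached, miR-1248 and miR-3648 being left out. limma on log2(value + 1) with Benjamini-Hochberg adjustment over the 607 names called 1 of the 8 lower in MIR21-KO and 0 higher, against a background of 0.824% of all tested names lower and 0% higher. At an unadjusted p under 0.05, 1 of the 8 was lower and 1 higher, where 4.45% and 6.75% of tested names were. edgeR and DESeq2 on the recovered reads each called 1 of the 8 lower and 0 higher, where edgeR called 1.32% of names lower and 0% higher, and DESeq2 called 3.17% lower and 0.667% higher. Counting groups that did not overlap, the lowest MIR21-KO library exceeded the highest Ctrl library for 2 of the 8 (background 9.56%), and the highest MIR21-KO library was under the lowest Ctrl library for 1 of the 8 (background 6.59%). The entry that was lower in each of these counts was miR-4485-3p. It reached the filter through its Ctrl libraries alone and was chosen with its difference known, so no support is taken from these counts. The median log2 fold change was 0.36 over the 8 entries and 0.24 over the 607 names.

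**Figure D1:**
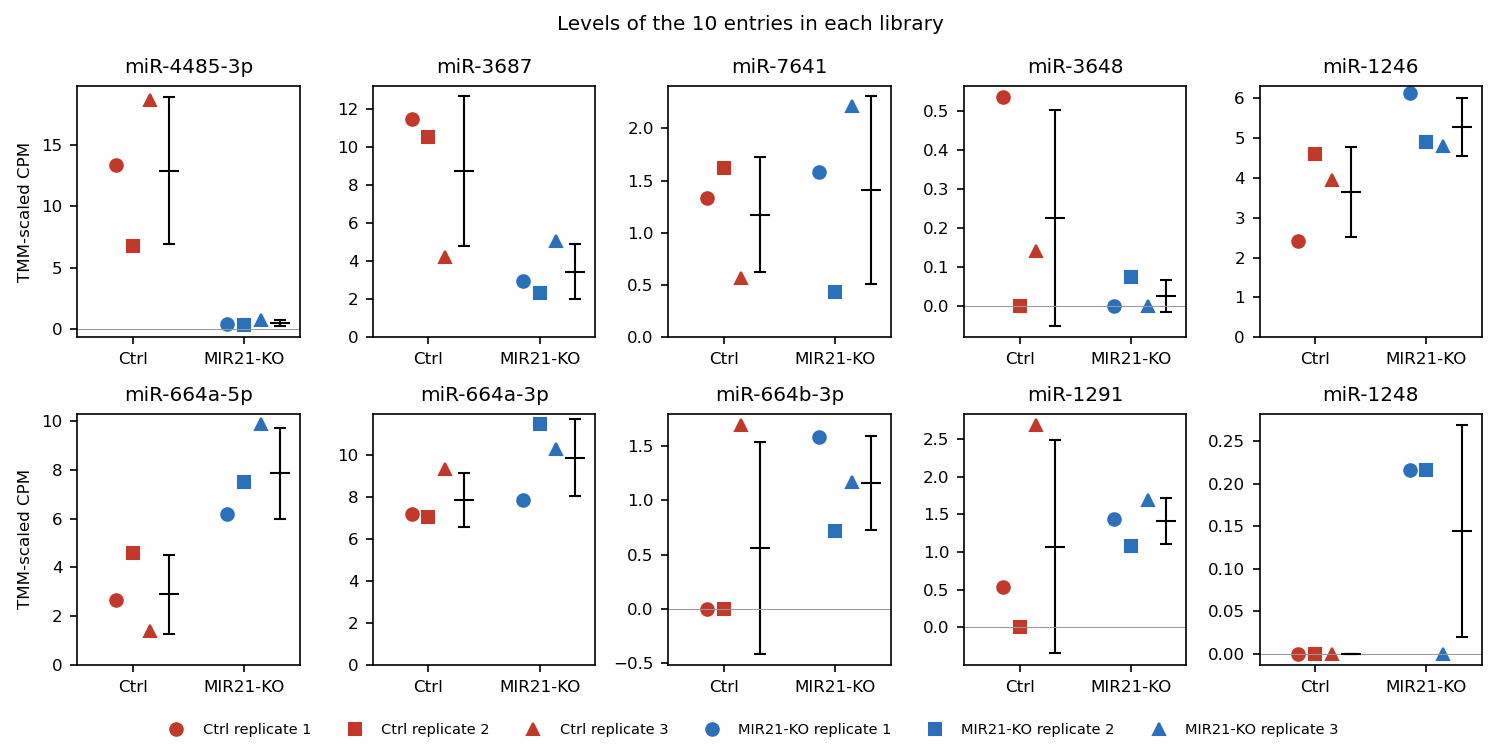
Deposited value (TMM-scaled CPM, linear axes that differ between panels) of each of the 10 entries in the 3 Ctrl libraries (red) and the 3 MIR21-KO libraries (blue), one marker shape per replicate number, with the mean and SD of each group (n = 3) in black. The groups are apart without overlap for miR-4485-3p, which was lower in MIR21-KO, and for miR-1246 and miR-664a-5p, which were higher there without passing the adjusted test.

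The entry that matches the mitochondrial rRNA, miR-4485-3p, was 1 of the 3 whose groups were apart. It had 50, 25 and 132 reads in Ctrl 1 to 3 and 6, 5 and 6 reads in MIR21-KO 1 to 3, or deposited values of 13.4, 6.76 and 18.6 against 0.432, 0.361 and 0.780. All 3 MIR21-KO libraries lay below every Ctrl library. Group means were 12.9 ± 5.95 and 0.524 ± 0.224 (SD, n = 3), and the log2 fold change on the log2(value + 1) scale was -3.10 (SE 0.44, limma adjusted p = 0.0166). The call was lost without any one of Ctrl 1 (adjusted p = 0.0862), MIR21-KO 1 (0.141), MIR21-KO 2 (0.151) or MIR21-KO 3 (0.0554), with log2 fold changes between -3.47 and -2.80 over the single libraries left out. A pseudocount of 10 gave -1.09 and lost the call (limma adjusted p = 0.0808). The log2 fold change was -4.80 in edgeR (adjusted p = 0.0169) and -4.92 in DESeq2 (adjusted p = 3.69e-10). This difference was known when the entries were chosen, and the entry reached the filter through its Ctrl libraries alone. No support is taken from it. In these bulk libraries, fewer cells of a type and less RNA per cell cannot be told apart.

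The groups were also apart as shares of reads. As a share of all miRNA reads other than miR-21, miR-4485-3p took 21.1 (95% Wilson interval 16.0 to 27.8), 12.9 (8.71 to 19.0) and 44.5 (37.5 to 52.8) RPM (reads scaled to a total of 1e+06) in Ctrl, and 0.692 (0.317 to 1.51), 0.690 (0.295 to 1.62) and 1.08 (0.493 to 2.35) in MIR21-KO. No interval of one group reached into the other. Such intervals cover counting error only. On each side of the first principal component the order was the same, 13.4 and 6.76 in Ctrl 1 and 2 against 0.780 in MIR21-KO 3, and 18.6 in Ctrl 3 against 0.432 and 0.361 in MIR21-KO 1 and 2. The 20 bases occur in both MT-RNR2 and MIR4485, so reads of the mitochondrial rRNA and of the nuclear locus cannot be told apart.

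The opposite strand of the same hairpin was scarcer. miR-4485-5p, which was not among the 10 entries, had 3, 4 and 16 reads in Ctrl and 1, 3 and 0 in MIR21-KO. On the deposited scale its MIR21-KO libraries, at most 0.216, lay below every Ctrl library, at least 0.801. The entry was below the filter and was not tested.

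Levels of miR-3687, which lies in the external spacer of the 45S precursor, did not pass the test. It had 43, 39 and 30 reads in Ctrl and 41, 32 and 39 in MIR21-KO, so the recovered reads were much alike in all 6 libraries. The deposited values were 11.5, 10.5 and 4.23 in Ctrl against 2.95, 2.31 and 5.07 in MIR21-KO, where the groups overlapped through Ctrl 3 and MIR21-KO 3. The log2 fold change was -1.08 (SE 0.48, limma adjusted p = 0.447), against a median of 0.24 over all tested names. Scaled to the total of all miRNA reads it was 0.07 against a median of 1.37, so it lay below the median by a similar amount on both scales. Leaving out Ctrl 3 and MIR21-KO 3, whose place on the first component differs from that of their group, gave -1.73 (limma adjusted p = 0.00303). That setting called 21.4% of all names lower and 37.7% higher, and in the 4 libraries that remain the group and the side of that component cannot be told apart. With the side as a term in the fit, which called 6.43% of names lower and 11.7% higher, the value was -0.76 (limma adjusted p = 0.0890). On each side alone MIR21-KO was the lower group, with 5.07 under 11.5 and 10.5, and with 2.95 and 2.31 under 4.23.

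The table lists miR-3687 in 2 rows, 1 for each identical hairpin. The rows held 112 and 112 reads over all libraries, and in single libraries 24 and 19, 20 and 19, 16 and 14, 19 and 22, 12 and 20, and 21 and 18. Reads of identical hairpins cannot be assigned to one of them, so the row totals do not show which copy was the source. The neighbouring miR-3648 had 2, 0 and 1 reads in Ctrl and 0, 1 and 0 in MIR21-KO, all 4 of them in 1 of its 2 rows, and no difference was detectable at this depth. A count of 0 allows up to 3 reads, or 0.307 to 0.538 RPM among these libraries.

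miR-7641, the entry that resembles 5S rRNA, had 5, 6 and 4 reads in Ctrl and 22, 6 and 17 in MIR21-KO. The deposited values were 1.34, 1.62 and 0.564 against 1.58, 0.433 and 2.21, and the lowest value of all was in MIR21-KO 2. The log2 fold change was 0.10 (SE 0.41, limma adjusted p = 0.929), and its sign turned with the scaling and with single libraries. Its 2 rows held 29 and 31 reads.

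Among the entries that lie in snoRNAs, the 2 strands of MIR664A were the most abundant. miR-664a-3p had 27, 26 and 66 reads in Ctrl and 109, 159 and 79 in MIR21-KO. The deposited values of 7.21, 7.03 and 9.31 overlapped with 7.85, 11.5 and 10.3. The log2 fold change was 0.29 (SE 0.38, limma adjusted p = 0.789).

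miR-664a-5p had 10, 17 and 10 reads in Ctrl and 86, 104 and 76 in MIR21-KO. The deposited values of 2.67, 4.60 and 1.41 all lay below those of 6.19, 7.50 and 9.88. Group means were 2.89 ± 1.60 and 7.86 ± 1.87 (SD, n = 3). The log2 fold change was 1.25 (SE 0.44), with an unadjusted limma p of 0.0227 and an adjusted p of 0.371, so the difference did not pass the test over all names. With the side of the first component as a term the log2 fold change was 1.48 (limma adjusted p = 0.00488), and leaving out Ctrl 3 and MIR21-KO 3 gave 0.79 (limma adjusted p = 0.0758), both settings being chosen after the split was seen. On each side alone MIR21-KO was the higher group, with 9.88 over 2.67 and 4.60, and with 6.19 and 7.50 over 1.41. The Ctrl values rest on 10 to 17 reads per library.

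Both strands lie in the same hairpin, so their ratio within a library does not depend on its scaling. miR-664a-5p made up 27.0% (95% Wilson interval 15.4 to 43.0), 39.5% (26.4 to 54.4) and 13.2% (7.31 to 22.6) of the MIR664A reads in Ctrl. It made up 44.1% (37.3 to 51.1), 39.5% (33.8 to 45.6) and 49.0% (41.3 to 56.8) in MIR21-KO. Ctrl 2 and MIR21-KO 2 were nearly equal, with 17 of 43 and 104 of 263 reads. The mean log2 ratio of 3p to 5p was 1.59 in Ctrl and 0.34 in MIR21-KO, a difference of -1.25 with a two-sided exact permutation p = 0.1, the smallest that 3 against 3 libraries can give. The difference was -0.69 without Ctrl 3 and -1.74 without Ctrl 2. Adding 1 read to each strand made the groups overlap (difference -1.18, exact permutation p = 0.2), so the separation rests on less than 1 read.

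**Figure D2:**
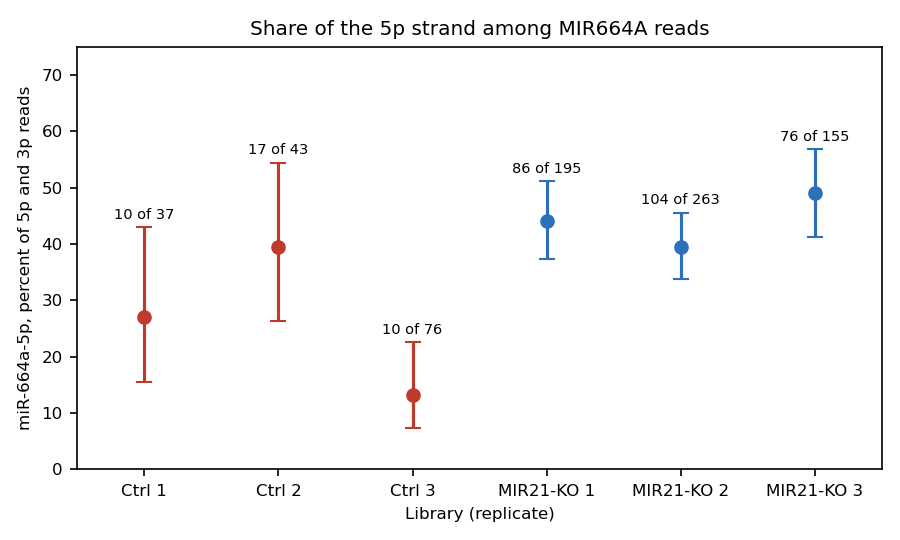
Percent of MIR664A reads (5p and 3p strands together) that were miR-664a-5p in each library, with 95% Wilson intervals that cover counting error only and the read counts above, Ctrl in red and MIR21-KO in blue. Ctrl 2 and MIR21-KO 2 are both at 39.5%, and Ctrl 3 is lowest at 13.2%.

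miR-664b-3p, which lies in the paralogous SNORA36A, had 0, 0 and 12 reads in Ctrl and 22, 10 and 9 in MIR21-KO. It had no read in Ctrl 1 and Ctrl 2 and at least 9 in the other 4 libraries. Its 22 bases matched 2 snoRNA transcripts under 2 gene names, SNORA36A among them, so the source of a read cannot be told. The deposited values were 0, 0 and 1.69 against 1.58, 0.721 and 1.17, and the log2 fold change was 0.61 (SE 0.45, limma adjusted p = 0.671). Its partner strand miR-664b-5p, not among the 10 entries, had 2, 13 and 1 reads in Ctrl and 9, 11 and 1 in MIR21-KO. The 2 strands took turns as the larger, with 0 of 13 MIR664B reads on the 3p strand in Ctrl 2, 12 of 13 in Ctrl 3 and 9 of 10 in MIR21-KO 3.

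miR-1291, which lies at the 5′ end of SNORA2C, had 2, 0 and 19 reads in Ctrl and 20, 15 and 13 in MIR21-KO. Its deposited values of 0.534, 0 and 2.68 enclosed the MIR21-KO values of 1.44, 1.08 and 1.69. The log2 fold change was 0.43 (SE 0.49, limma adjusted p = 0.760), and it was 0.0088 without Ctrl 2 and 0.95 without Ctrl 3. Ctrl 3 was the highest library and Ctrl 2 the lowest, so the spread within Ctrl exceeded the difference between the groups.

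Leaving out Ctrl 3 and MIR21-KO 3 brought miR-1291 to 0.86 (limma adjusted p = 0.0411) and miR-664b-3p to 1.08 (limma adjusted p = 0.0155), again with the group and the side of the first component in step. With the side as a term the values were 0.21 and 0.38 (limma adjusted p = 0.765 and 0.487). On the side that holds Ctrl 3, MIR21-KO 1 and MIR21-KO 2, both entries had their highest value in Ctrl 3.

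miR-1248, which lies at the 5′ end of SNORA81, had 0, 0 and 0 reads in Ctrl and 3, 3 and 0 in MIR21-KO. Both groups were at or under the limit that a count of 0 allows, so no fold is given and no difference was detectable.

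miR-1246, whose 19 bases lie in U2 snRNA, had 9, 17 and 28 reads in Ctrl and 85, 68 and 37 in MIR21-KO. The deposited values of 2.40, 4.60 and 3.95 lay below those of 6.12, 4.90 and 4.81, with a gap of less than 1 read of Ctrl 2 between the nearest libraries. Group means were 3.65 ± 1.13 and 5.28 ± 0.732 (SD, n = 3), and the log2 fold change was 0.46 (SE 0.37, limma adjusted p = 0.700). As a share of reads other than miR-21, the values were 3.80, 8.74 and 9.44 RPM in Ctrl and 9.80, 9.39 and 6.64 in MIR21-KO, and on this scale the groups overlapped. The 19 bases matched 19 transcripts under 8 gene names, so a read of a U2 gene and a read of MIR1246 cannot be told apart.

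The scaling set the sign or the call for several of these entries, and miR-21 filled most of each Ctrl library but little of the MIR21-KO libraries. Scaled to the total of all miRNA reads, the median log2 fold change over the 607 names was 1.37, and miR-1246 (1.59, limma adjusted p = 0.0290), miR-664a-3p (1.54, limma adjusted p = 0.0366) and miR-664a-5p (2.40, limma adjusted p = 0.0220) were called higher. These are 3 of the 8 tested entries, on a scale where 32.3% of all names were called higher and 1.15% lower, so the share is near the background. All 3 lay above that median, miR-1246 and miR-664a-3p close to it. Scaled to the total without miR-21, the median was 0.02 and none of the 3 was called. miR-4485-3p had a log2 fold change of -2.30 when scaled to the total (limma adjusted p = 0.0247) and of -3.10 on the deposited values. It was called under all 5 scalings. These use the same libraries and are no further support, and the call was lost in other settings, as given above.

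**Figure D3:**
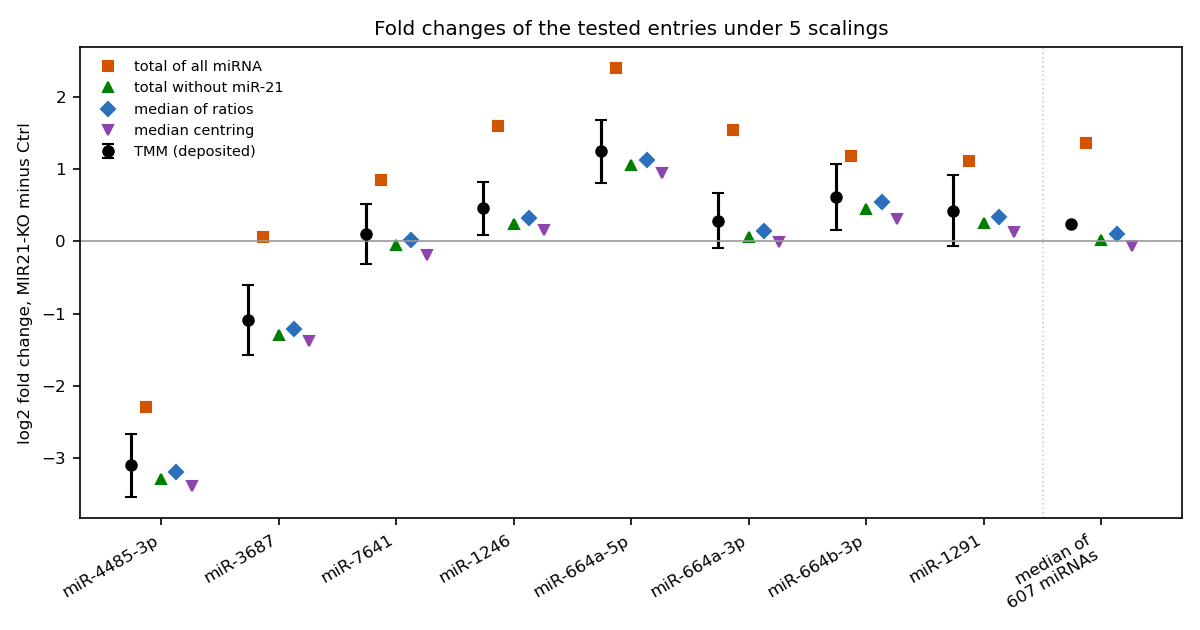
log2 fold change (MIR21-KO minus Ctrl, on the log2(value + 1) scale) of the 8 tested entries under 5 scalings, with the median of the 607 tested names at the right. Black circles with SE bars are the deposited TMM values, and scaling to the total of all miRNA reads (squares) moves every entry upwards while miR-4485-3p stays below 0 under each scaling.

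The 10 entries together had 148, 130 and 302 reads in Ctrl and 394, 403 and 276 in MIR21-KO. As RPM of all miRNA reads this was 21.5 (95% Wilson interval 18.3 to 25.3), 21.0 (17.7 to 25.0) and 30.9 (27.6 to 34.6) in Ctrl and 45.4 (41.2 to 50.1), 55.6 (50.5 to 61.3) and 49.5 (44.0 to 55.7) in MIR21-KO. The ratio of the group means was 2.05. As RPM of the reads other than miR-21, the means were 77.0 ± 21.5 in Ctrl and 50.2 ± 5.13 in MIR21-KO (SD, n = 3), a ratio of 0.651, so the direction turned with the denominator. Leaving miR-4485-3p out as well gave 50.9 ± 8.40 and 49.4 ± 5.16, a ratio of 0.970. On that scale the other 9 entries together differed by less than the spread between replicates.

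The make-up of these reads differed between the libraries. miR-4485-3p took 33.8%, 19.2% and 43.7% of the reads of the 10 entries in Ctrl, and 1.52%, 1.24% and 2.17% in MIR21-KO. The 2 MIR664A strands together took 37 of 148, 43 of 130 and 76 of 302 reads in Ctrl and 195 of 394, 263 of 403 and 155 of 276 in MIR21-KO. These shares are tied to each other, since a low share of one entry raises the rest.

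**Figure D4:**
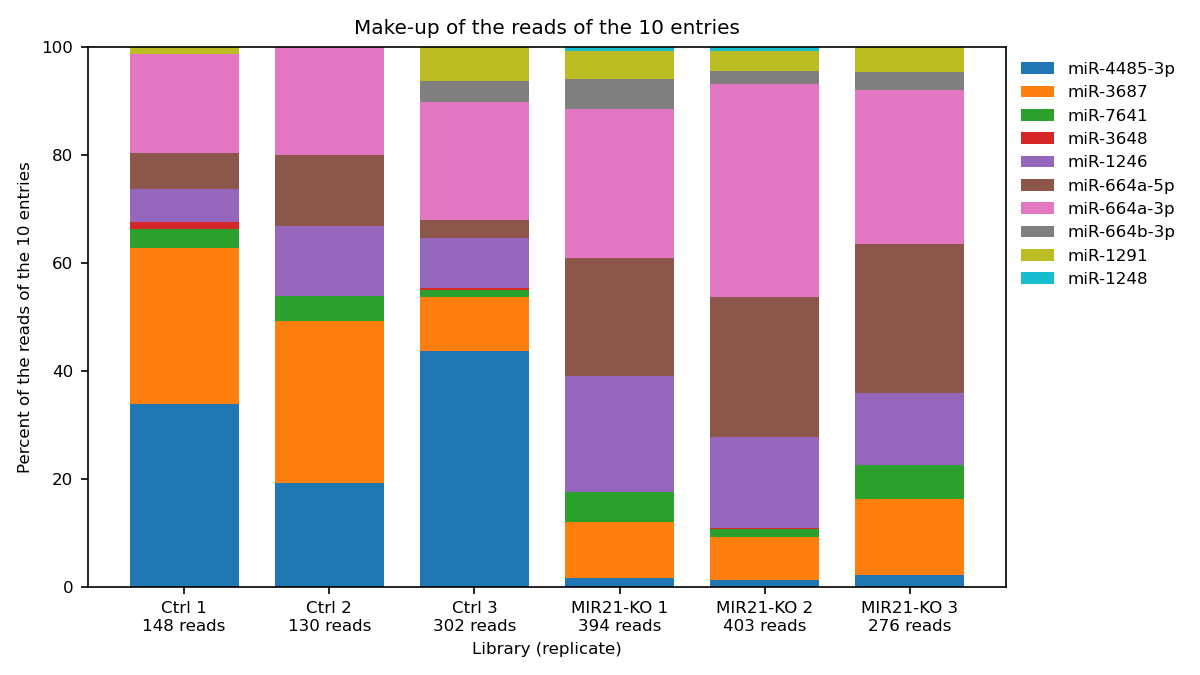
Percent of the reads of the 10 entries taken by each entry in each library, with the number of reads under each bar. miR-4485-3p fills 19.2 to 43.7% of the bar in Ctrl and 1.24 to 2.17% in MIR21-KO, and the 2 strands of MIR664A fill a larger part of the bar in MIR21-KO.

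Further entries of similar placement were also looked up. Of 12 more names placed in snoRNA, scaRNA or rRNA genes, 10 were in the table and 2 passed the filter, with 0 called in either direction. miR-3607-3p had a log2 fold change of -0.35 (SE 0.40, limma adjusted p = 0.746). For miR-6516-5p, which lies in SCARNA16, it was 0.44 (SE 0.38, limma adjusted p = 0.719). Of 9 names that resemble tRNA, mitochondrial RNA or other abundant small RNAs, 8 were in the table and 4 passed, with 0 called. Over the 607 tested names limma called 0.824% lower and 0% higher, so 0 calls among so few names is near that share. miR-1260a, miR-1260b and miR-7977 had limma adjusted p-values of 0.719, 0.832 and 0.832.

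miR-4461 was the one among these 4 whose groups were apart. It had 19, 29 and 28 reads in Ctrl and 14, 7 and 17 in MIR21-KO, and deposited values of 5.07, 7.84 and 3.95 against 1.01, 0.505 and 2.21. Every MIR21-KO library lay below every Ctrl library, as for 6.59% of the 607 tested names. The log2 fold change of -1.59 (SE 0.43) had a limma adjusted p of 0.226 and did not pass. Its hairpin, at chr5:134928039-134928112 on the plus strand, equals the antisense strand of mitochondrial MT-ND4L at 70 of 74 bases. A second name that matches MT-RNR2, miR-1973, equals bases 912 to 930, which begin at the last base of miR-4485-3p. It had 0 reads in all 6 libraries.

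For the 2 entries with the highest mean share of reads, the names with the most similar levels were sought among 332 others with a mean value of at least 10, by Pearson correlation of log2(value + 1) over the 6 libraries. They are given as a description, since the 6 points share groups and depth. miR-664a-3p was closest to miR-548e-3p (r = 0.888), miR-493-5p (0.743) and miR-323b-3p (0.726). miR-664a-5p was closest to miR-503-5p (0.927), miR-182-5p (0.927) and miR-132-5p (0.922). The lists held no name in common, but only the closest names of each strand were compared, so this does not show that the strands differ.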

How the data were processed

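Small RNA libraries of 3 Ctrl and 3 MIR21-KO samples were deposited as 1 table of TMM-scaled CPM, here treated as a signal. According to the submitters' processing notes, the authors used hg38, cutadapt 1.14, Bowtie2 2.3.2, SAMtools 1.5, featureCounts 1.5.3 and edgeR 3.18.1 to make these deposited signal values. Strand settings and the treatment of reads that match several places are not given in the sources used here. The authors also deposited log2 fold changes, p-values and other adjusted values of their own comparison, and these were not used. Whole reads were recovered by dividing by the value of 1 read (100% whole within 1e-06), and TMM values recomputed from them differed by at most 4.92e-15 (relative). Rows of one name were summed (2813 rows, 2588 names). Values were tested with limma 3.58.1 (lmFit, eBayes with trend, log2(value + 1), condition only, two-sided) over the 607 names that reached a value of 1 in 3 or more libraries. A threshold of 0.05 was applied to Benjamini-Hochberg adjusted p-values. edgeR 4.0.16 (quasi-likelihood), DESeq2 1.42.0 and other scalings, filters and pseudocounts were alternatives. The fits were tested on simulated data. The MIR664A strand ratio was compared by an exact permutation test (scipy 1.17.1). Loci came from GENCODE 29 and RefSeq (GRCh38). All 10 entries are named, and the members and lists were chosen with earlier results of these data known. With 5577287 to 9768152 reads per library, a count of 0 allows up to 3 reads.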

Additional observations from a re-analysis of the deposited data

How the results depend on the processing

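Reads per entry, at most 159 in a library, limit all of these values. 1 entry was called lower, and 0 were with a pseudocount of 10 (miR-4485-3p, adjusted p = 0.0808), with a replicate block (adjusted p = 0.228) and without Ctrl 1 or any 1 MIR21-KO library (0 to 1 over the single libraries left out). Names called lower went from 5 to 3 with the pseudocount of 10, 9 with median centring, 8 in edgeR, 19 in DESeq2, 2 with the replicate block and 2 to 5 with 1 library left out. Names called higher went from 0 to 196 when scaled to the total, where 3 entries were called, and to 4 in DESeq2. Of the settings added after seeing the data, leaving out Ctrl 3 and MIR21-KO 3 together called 2 entries lower and 2 higher (130 and 229 names), and the side of the first component as a term called 1 lower and 1 higher (39 and 71 names). The sign turned for miR-3687 (0.068, scaled to the total), miR-664a-3p (-0.0049, median centring) and miR-7641 (-0.042 scaled to the total without miR-21, -0.19 with median centring, -0.12 and -0.14 without Ctrl 3 or MIR21-KO 3 within a range of -0.14 to 0.44, -0.36 without both). The causes were not tested. The summed share turned from a ratio of 2.05 to 0.651 without miR-21 in the denominator, and was 1.91 to 2.36 with 1 library left out. The MIR664A difference was -1.74 to -0.69 with 1 library left out (exact permutation p = 0.2 each, the smallest possible). With a mean value of at least 10 no entry was left to test. Deviations of same-numbered libraries from their group means correlated at -0.79, -0.60 and -0.88. These values follow the split on the first component, where Ctrl 3 and MIR21-KO 3 lie on opposite sides. Whether replicate numbers pair the libraries beneath that split could not be judged.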

Other observations

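Of the 13 names whose mature sequence lies whole in a stable RNA, 6 are not among the 10 entries. miR-4284, within the mitochondrial tRNA MT-TF, had 0 reads in all 6 libraries. miR-3651, at the 3′ end of SNORA84, had 0, 0 and 0 reads in Ctrl and 0, 2 and 2 in MIR21-KO. miR-6516-3p, which lies in SCARNA16, had 0, 0 and 4 reads in Ctrl and 4, 8 and 9 in MIR21-KO. Its partner miR-6516-5p had 6, 2 and 1 against 21, 19 and 7. In Ctrl 1 and Ctrl 2 the reads of this pair were on the 5p strand, as were those of MIR664B in the same libraries, at counts too low to compare strands.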
